A study of Mus musculus with 32 samples.

Results

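The interneuron marker genes of GABAergic cells were followed through cultured mouse hippocampal neurons. They were taken by symbol and Ensembl identifier as Gad1, Gad2, Slc32a1, Sst, Npy, Vip, Pvalb and Cck, which are 8 of the 55573 genes in the count table and hold 0.0639% of all its counts. Neurons from newborn pups, pooled over the animals of a litter, grew on a porous membrane that holds the cell bodies (soma) on top and lets the axons and dendrites (neurites) grow through, so the top fraction may also hold neurites that stayed there. RNA-seq covered 8 groups of 2 libraries, that is soma and neurites, without (Ctrl) and with KCl, in WT and Mettl3 KO neurons. The WT pups were C57BL/6 and the KO pups Mettl3Flox/Flox, and both received, on day 7 in culture, the same AAV carrying Cre and dTomato behind the neuronal hSyn promoter at 50000 viral genomes per cell, so the WT neurons carry Cre too and glia are not targeted by the promoter. All cultures were silenced on day 14 for 16 h with 1 µM TTX, which blocks sodium channels, and 50 µM D-AP5, which blocks NMDA receptors. The KCl groups were then depolarised on day 15 with 55 mM KCl for 2 h. Ara-C was given early against dividing glia. Libraries held 33789183 to 71394235 counts. The methods describe the duplicates as separate litters, with the control and KCl neurons taken from 1 litter.

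Interneurons are the inhibitory minority of hippocampal neurons. They make GABA from glutamate with the decarboxylases encoded by Gad1 and Gad2 and load it into synaptic vesicles with the transporter encoded by Slc32a1, and this trio is shared by nearly all of them. The other 5 genes divide them into classes. Sst and Npy encode the peptides somatostatin and neuropeptide Y, which mark dendrite-targeting and neurogliaform cells among others. Vip encodes vasoactive intestinal peptide of cells that mostly inhibit other interneurons, Cck encodes cholecystokinin of a class of basket cells and is also made in excitatory neurons, and Pvalb encodes the calcium-binding protein parvalbumin of fast-spiking cells, which appears late in development.

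All 8 genes were detected in all 16 libraries, from 8 counts (Vip) to 36885 counts (Gad1) per library, and all 8 passed the filter of a mean count of at least 10 in every comparison. Per kilobase of summed exon length (FPKM), the levels in WT soma without KCl were 112 ± 6.59 for Sst, 49.4 ± 3.41 for Cck, 41.9 ± 2.41 for Gad1, 38.4 ± 1.31 for Npy, 24.8 ± 1.47 for Slc32a1, 20.4 ± 0.523 for Gad2, 4.50 ± 0.422 for Pvalb and 1.34 ± 0.0249 for Vip (mean ± SD, n = 2). In that order, only the neighbours Gad1 and Npy lay closer than the sum of their SDs. The decarboxylase, transporter, Sst, Npy and Cck mRNAs were thus well measured, whereas Vip and Pvalb were rare in these cultures. Reads that map to several places were counted by the authors at each of them, and the processed pseudogene Gad1-ps, which can share reads with Gad1, held 0.398 to 5.76 CPM (counts scaled to library size).

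**Figure D1:**
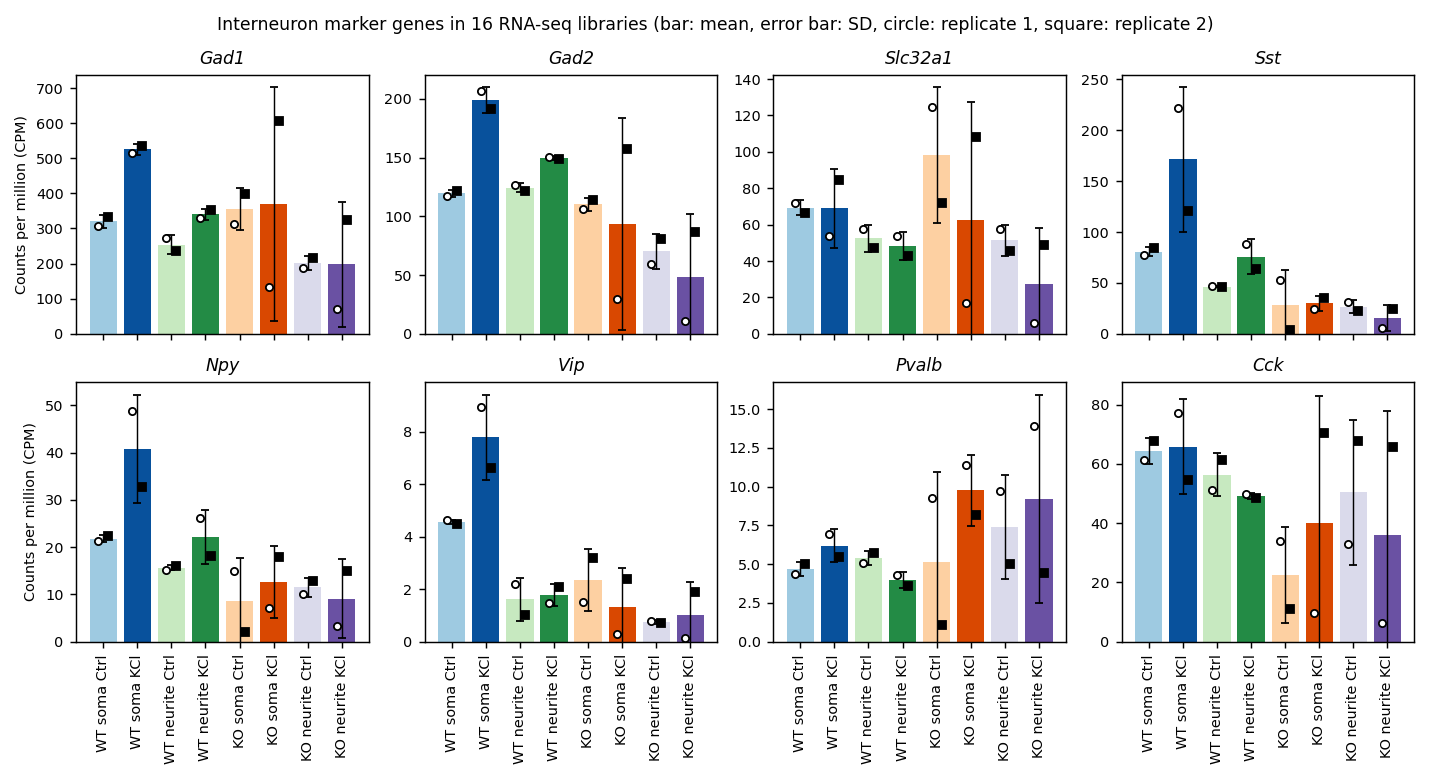
CPM of each gene (y axis, a scale of its own per panel) in the 8 groups (x axis), with bars for the mean, error bars for the SD (n = 2, cut at 0) and a circle and a square for replicates 1 and 2. Most WT duplicates sit close together, whereas the KO KCl duplicates of most genes lie far apart, with Gad1 at 134 and 606 CPM in soma. Sst also lies apart in WT KCl soma, at 221 and 121 CPM, and in KO Ctrl soma, at 52.4 and 3.99 CPM.

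The excitatory marker genes summed to 379 to 565 CPM in soma libraries other than the first replicate of KO KCl, against 606 to 1138 CPM for the 8 interneuron genes in the same libraries. Glial mRNA was present as well, with astrocyte markers at 1159 to 2578 CPM in those libraries, of which Gfap, the intermediate filament of astrocytes, reached 506 CPM and 518 CPM in WT soma without KCl. No gene of the astrocyte, microglia, oligodendrocyte or fibroblast lists was at 0 in any library. In WT neurites without KCl the excitatory markers summed to 679 CPM and 742 CPM, against 578 CPM and 535 CPM for the 8 interneuron genes. Such sums depend on the genes listed and do not count cells. In bulk RNA, fewer interneurons and less of an mRNA in each interneuron cannot be told apart.

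KCl raised the mRNAs for the GABA-synthesising enzymes and for 2 peptides in WT soma, and Sst was the only member to reach 2-fold. Gad1 measured 307 CPM and 333 CPM without KCl and 514 CPM and 536 CPM with it. The KCl values lay well above the control values, and the fold was 1.56 (log2 0.64, SE 0.11, adjusted p = 0.00365). Gad2 went from 117 CPM and 122 CPM to 207 CPM and 191 CPM, again without overlap, at 1.58-fold (log2 0.66, SE 0.10, adjusted p = 0.00185). Both decarboxylase mRNAs therefore rose by a like amount with little spread between duplicates.

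Sst measured 77.3 CPM and 84.1 CPM without KCl and 221 CPM and 121 CPM with it. The groups did not overlap, but the KCl duplicates differed 1.83-fold. The fitted rise was 2.01-fold (log2 1.006, SE 0.24, adjusted p = 0.0178), only just past the 2-fold threshold. Npy measured 21.2 CPM and 22.2 CPM without KCl and 48.8 CPM and 32.6 CPM with it, a rise of 1.78-fold (log2 0.83, SE 0.21, adjusted p = 0.0229), and its first KCl library was also the higher.

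Vip measured 4.62 CPM and 4.50 CPM without KCl and 8.94 CPM and 6.64 CPM with it, with a log2 change of 0.69 (SE 0.29) that did not pass the test (adjusted p = 0.163). Pvalb measured 4.38 CPM and 4.997 CPM without and 6.93 CPM and 5.44 CPM with KCl (log2 0.32, adjusted p = 0.36). The vesicular transporter and Cck did not move the same way in both replicates. Slc32a1 measured 72.1 CPM and 66.3 CPM without and 53.7 CPM and 84.5 CPM with KCl (log2 -0.08, adjusted p = 0.866), and Cck 61.3 CPM and 67.6 CPM without and 77.3 CPM and 54.4 CPM with KCl (log2 -0.05, adjusted p = 0.893).

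In WT soma, 4 of the 8 genes rose with an adjusted p of at most 0.05 at any fold, where 6.13% of all 24060 genes tested did so. With the 2-fold threshold this was 1 of 8 (Sst), against 3.74% of all genes. The median log2 change of the 8 was 0.65, and that of all genes was 0.01. The p-values here and below are from edgeR's quasi-likelihood test over all genes with Benjamini-Hochberg adjustment, fitted in the 8 libraries of 1 genotype unless stated otherwise. At any fold, only Gad2 kept an adjusted p up to 0.05 without WT soma Ctrl replicate 1 (Gad1 0.0529, Npy 0.127 and Sst 0.116), Npy and Sst were lost without WT soma Ctrl replicate 2 (0.0943 and 0.0741) and without WT soma KCl replicate 1 (0.0995 and 0.0572), and Gad2 passed whichever of the 4 libraries was left out. The 2-fold call of Sst was lost with the replicate number as a block (log2 0.95, adjusted p = 0.0163), without WT soma Ctrl replicate 1 (adjusted p = 0.116) or replicate 2 (adjusted p = 0.0741) and without WT soma KCl replicate 1, which lowered the log2 change to 0.54 (adjusted p = 0.0572), and without WT soma KCl replicate 2 Npy was called as well (log2 1.09, adjusted p = 0.00371). In a fit to all 16 libraries, in which the spread of the KO duplicates is shared with WT, no member was called and the adjusted p of Sst was 0.987.

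The spread between the WT KCl soma duplicates moved with exon length. Over genes under 1000 bases of exon the median log2 ratio of replicate 2 to replicate 1 was -0.26, from 1000 to 2000 bases it was -0.20, from 2000 to 4000 bases it was -0.12 and above it was 0.02. Sst (721 bases) stood at -0.87, Npy (566 bases) at -0.58, Pvalb (1041 bases) at -0.35 and Cck (1305 bases) at -0.51. Slc32a1 (2797 bases) stood at 0.65, the other way from its class, and Vip (3402 bases) at -0.43. Gad2 (5876 bases) stood at -0.11 and Gad1 (7639 bases) at 0.06. The part of length in the Sst and Npy values was not tested.

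Immediate early genes checked the KCl labels. Fos, a transcription factor gene induced by activity, measured 12.9 CPM and 12.4 CPM in WT soma without KCl and 3204 CPM and 2750 CPM with it. Npas4, an activity-dependent regulator of inhibitory synapses, measured 5.02 CPM and 4.72 CPM without and 866 CPM and 1650 CPM with KCl. The other gene lists moved less than these, and 3.74% of all genes were called higher with KCl in WT soma. Of 18 other genes of interneuron classes, Crhbp alone passed 2-fold in WT soma (log2 1.18, adjusted p = 0.00102), which encodes a protein that binds corticotropin-releasing hormone. Of 11 other genes of secreted peptides, 10 were tested, and Scg2 (log2 1.19) and Vgf (log2 2.15), which encode granins of dense-core vesicles, passed. None of the 16 interneuron transcription factor genes and none of the GABA reuptake and breakdown genes passed it there. Of 9 excitatory marker genes, Tbr1 (log2 -1.93) and Emx1 (log2 -1.21), which encode transcription factors of excitatory neurons, fell, where 2.96% of all genes did. Of 10 astrocyte markers, the transcription factor gene Sox9 rose (log2 2.02), while the whole list summed to 1159 CPM and 1182 CPM without KCl and to 1655 CPM and 1674 CPM with it.

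In WT neurites none of the 8 genes passed 2-fold with KCl, where 5.03% of all 22059 genes did in either direction. At an unadjusted p of at most 0.05 and any fold there were 4 of 8 members and 22.8% of all genes, and DESeq2 also called none. Gad1 measured 272 CPM and 236 CPM without KCl and 329 CPM and 351 CPM with it, and rose 1.37-fold (log2 0.46, SE 0.11, adjusted p = 0.0296). Sst measured 46.8 CPM and 46.0 CPM without and 88.0 CPM and 63.8 CPM with KCl (log2 0.75, SE 0.24, adjusted p = 0.0854). For both genes the KCl neurites lay above all control neurites. The changes of the others were 0.30 for Gad2 (adjusted p = 0.0942), 0.54 for Npy (adjusted p = 0.155), 0.15 for Vip, -0.09 for Slc32a1, -0.16 for Cck and -0.41 for Pvalb on the log2 scale, and none passed the test. Among the other interneuron genes, Dlx2, a forebrain interneuron transcription factor gene, rose in neurites (log2 1.60, adjusted p = 0.0268).

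**Figure D2:**
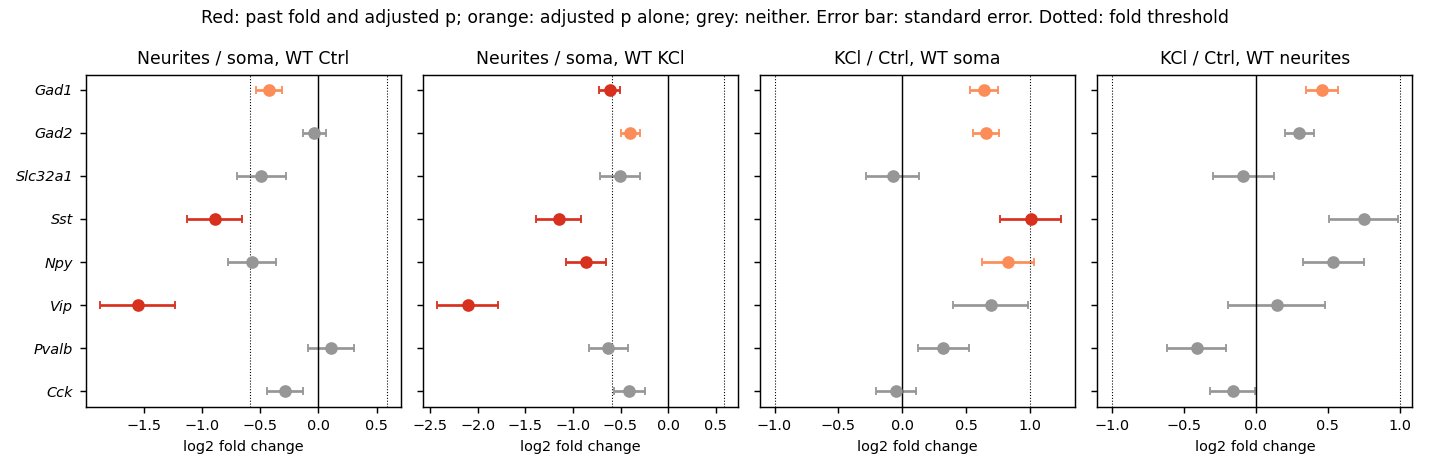
Log2 fold changes (x axis) of the 8 genes (y axis) with their standard errors in the fit to the 8 WT libraries. Red points pass the dotted fold threshold and an adjusted p of 0.05, orange points pass the adjusted p alone and grey points neither; Vip and Sst are red in both neurite to soma panels and Sst alone is red for KCl in soma.

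The promoters of the members were read for elements that activity-dependent factors are known to bind. The reason was that 4 of these mRNAs rose with KCl in WT soma at an adjusted p of at most 0.05, of which only Sst passed 2-fold. CREB binds the cAMP response element TGACGTCA and its core TGACG, and AP-1 (Fos with Jun) binds TGANTCA. RefSeq promoter windows that span the gene start (GRCm38.p6) were available for 8 of 8 members, with 9 windows in all because Pvalb has 2, and both strands were searched. The full element was in the window of 1 member, Sst, and in 1.79% of all 32851 windows. The core, which is also inside the full element, was in 4 members (Sst, Gad2, Vip and Cck) and in 20.8% of all windows, and TGANTCA was in none of the 8 members and in 7.81% of all windows. The 30 bases around each element are shown 5′ to 3′ on the strand of the gene, with the element in capitals, so that the full element can be set against the 3 cores.
Sst, chr16:23890874-23890903, minus strand, element from -48 to -41: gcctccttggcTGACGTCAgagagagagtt
Gad2, chr2:22622282-22622311, plus strand, core on the other strand from -33 to -29: ccatttcccttcCGTCActctctcatctcc
Vip, chr10:5639127-5639156, plus strand, core from -79 to -75: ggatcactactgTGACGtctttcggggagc
Cck, chr9:121495724-121495753, minus strand, core on the other strand from -47 to -43: cctgctggactgCGTCAgcactgggtaaac
Positions count from the RefSeq start of each gene. Of the 4 mRNAs that rose in WT soma, Sst and Gad2 hold such a match in the window, and Gad1 and Npy hold none. Cck holds a core and stood at a log2 change of -0.05. These matches describe letters in the windows and no binding was measured.

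Neurites of WT neurons without KCl held less of the peptide mRNAs Vip and Sst than soma, while the Gad2 difference was smaller than its error. Vip measured 4.62 CPM and 4.50 CPM in soma and 2.20 CPM and 1.02 CPM in neurites, at 0.340 of the soma level (log2 -1.55, SE 0.32, adjusted p = 0.00884). Sst measured 77.3 CPM and 84.1 CPM in soma and 46.8 CPM and 46.0 CPM in neurites, at 0.539 of the soma level (log2 -0.89, SE 0.24, adjusted p = 0.0263). In both genes each neurite library lay below each soma library. Gad1, at 272 CPM and 236 CPM in neurites, was lower by less than 1.5-fold (log2 -0.43, SE 0.11, adjusted p = 0.0243).

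The other peptides and the transporter did not pass the test. Npy measured 21.2 CPM and 22.2 CPM in soma and 15.2 CPM and 16.0 CPM in neurites (log2 -0.57, adjusted p = 0.0808), Slc32a1 72.1 CPM and 66.3 CPM in soma and 57.9 CPM and 47.2 CPM in neurites (log2 -0.49, adjusted p = 0.127), and Cck 61.3 CPM and 67.6 CPM in soma and 51.3 CPM and 61.4 CPM in neurites (log2 -0.29, adjusted p = 0.222). Gad2 measured 117 CPM and 122 CPM in soma and 127 CPM and 122 CPM in neurites (log2 -0.04, SE 0.10, adjusted p = 0.828), and the sign of this value changed with the scaling. Pvalb measured 4.38 CPM and 4.997 CPM in soma and 5.07 CPM and 5.71 CPM in neurites (log2 0.11, adjusted p = 0.736). Whether Gad1 and Gad2 differ from each other in this ratio was not tested.

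Of the 8 genes, 2 were called lower in neurites (Vip and Sst), where 4.54% of all 23200 genes were, and none was called higher. The median log2 difference of the 8 was -0.46, and that of all genes was -0.10. Both calls were lost without WT soma Ctrl replicate 1 (adjusted p = 0.0624 for Vip and 0.113 for Sst) and without replicate 2 (adjusted p = 0.0705 and 0.186), and Sst was lost without either WT neurite Ctrl library (adjusted p = 0.0825 and 0.119). In the fit to all 16 libraries no gene was called in this comparison (adjusted p = 0.8 for Vip and 0.888 for Sst).

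With KCl, 4 of the 8 mRNAs were lower in WT neurites than in soma, and the fitted difference was below 0 for all 8. Vip was at 0.232 of the soma level (8.94 CPM and 6.64 CPM in soma, 1.48 CPM and 2.08 CPM in neurites; log2 -2.11, SE 0.32, adjusted p = 0.00265). Sst was at 0.450 (221 CPM and 121 CPM in soma, 88.0 CPM and 63.8 CPM in neurites; log2 -1.15, SE 0.24, adjusted p = 0.0116). Npy was at 0.550 (48.8 CPM and 32.6 CPM in soma, 26.1 CPM and 18.1 CPM in neurites; log2 -0.86, SE 0.21, adjusted p = 0.022), and Gad1 was at 0.654 (514 CPM and 536 CPM in soma, 329 CPM and 351 CPM in neurites; log2 -0.61, SE 0.11, adjusted p = 0.0064). In each of the 4 genes the compartments did not overlap.

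Gad2 was lower by less than 1.5-fold with KCl (log2 -0.40, adjusted p = 0.0274), and Pvalb (log2 -0.63, adjusted p = 0.0679), Slc32a1 (log2 -0.51, adjusted p = 0.14) and Cck (log2 -0.41, adjusted p = 0.121) did not pass. The 4 genes called lower stand against 2.73% of all 23028 genes, and the median log2 difference of the 8 was -0.62 against -0.03 over all genes. Without WT neurite KCl replicate 2 the calls of Sst (adjusted p = 0.101) and Npy (adjusted p = 0.154) were lost and 2 of 8 were left, without WT soma KCl replicate 1 Npy was lost (log2 -0.53), and without WT soma KCl replicate 2 or WT neurite KCl replicate 1 Gad1 was lost (log2 -0.57 and -0.58). Calls were also gained, for Slc32a1 without WT soma KCl replicate 1 (log2 -0.78) and for Pvalb and Cck without WT soma KCl replicate 2 (log2 -0.78 and -0.63). In the fit to all 16 libraries no gene was called (adjusted p from 0.952 for Vip to 0.989 for Cck).

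Other interneuron genes were called in both directions between the compartments. Of all genes, 4.54% were called lower and 9.01% higher in WT neurites without KCl, and 2.73% lower with it. Of 18 other interneuron class genes, 5 were lower and 2 higher in WT neurites without KCl, among them Crhbp (log2 -1.20) and the cannabinoid receptor gene Cnr1 (log2 -0.84) below soma, and Reln (log2 1.13) and Ndnf (log2 1.15), which encode secreted proteins of Cajal-Retzius and neurogliaform cells, above it. With KCl 8 of the 18 were lower, including Tac1 (log2 -1.22), the gene for the substance P precursor, and 2 were higher, where 6.87% of all genes were called higher. Of 11 genes of other secreted peptides, which include Tac1 again, 10 were tested and 4 were lower without KCl, with the tachykinin gene Tac2 at a log2 difference of -1.88 and the dynorphin gene Pdyn at -0.67, and 5 were lower with KCl, with the enkephalin gene Penk at -1.34; none was higher in either state. Of 16 transcription factor genes, Dlx5 was lower (log2 -0.75) and Sox6 higher (log2 0.70) without KCl, and Dlx5 alone was called with KCl (log2 -0.83). Of the GABA reuptake and breakdown genes, none of the 4 tested without KCl was called.

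Some markers of other cells were called higher in the neurite fraction of the same inserts. Without KCl, 5 of 10 astrocyte and 2 of 7 microglia markers tested were called higher in WT neurites. So were 2 of 7 oligodendrocyte lineage and 4 of 9 fibroblast and vascular markers tested. None of them was called lower, and 9.01% of all genes were called higher. Of 9 excitatory markers 2 were called higher (Nrgn at a log2 difference of 0.74 and Neurod6 at 0.79). Astrocyte markers summed to 1159 CPM and 1182 CPM in WT soma and to 3143 CPM and 2050 CPM in WT neurites, and excitatory markers to 565 CPM and 556 CPM in soma and to 679 CPM and 742 CPM in neurites. Gfap was at a log2 difference of 1.44 and the complement gene C1qa of microglia at 2.29. With KCl, 3 of 10 astrocyte and 2 of 6 microglia markers tested were called higher in WT neurites. The same held for 2 of 8 oligodendrocyte lineage, 0 of 9 fibroblast and vascular and 4 of 9 excitatory markers. Of all genes 6.87% were called higher, and these lists held none called lower. The median log2 difference of the astrocyte markers was 0.82 without KCl and -0.15 with it. Their sums with KCl were 1655 CPM and 1674 CPM in soma and 2367 CPM and 2814 CPM in neurites. The part of these shifts in the lower interneuron mRNAs was not tested.

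Over the 8 inserts of both genotypes, with soma and neurites of the same replicate number taken as 1 insert, the neurite value of Gad1 and of Vip was below the soma value in 8 of 8. This held in 7 of 8 inserts for Slc32a1, Sst, Npy and Cck, in 6 of 8 for Gad2 and in 3 of 8 for Pvalb. The log2 ratios of Gad1 ran from -0.90 to -0.17, the narrowest span of the 8 genes. The exception for Sst, Npy and Cck was the same insert, KO Ctrl 2, at log2 ratios of 2.46, 2.67 and 2.61, where Pvalb also stood at 2.25.

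**Figure D3:**
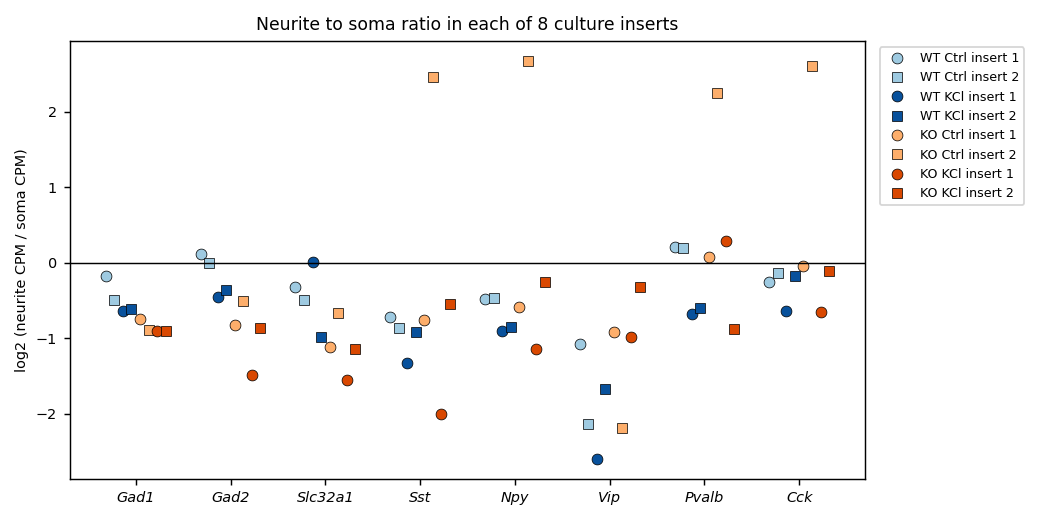
Log2 ratio of neurite to soma CPM (y axis) for each gene (x axis) in each of the 8 inserts, 1 point per insert. All Gad1 and Vip points lie below 0, and the points of KO Ctrl insert 2 for Sst, Npy, Pvalb and Cck stand above 2.2 while those of Gad1, Gad2, Slc32a1 and Vip do not.

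Whether KCl changed the neurite to soma ratio was fitted in WT with a term for each insert. Pvalb was the only member called, on the study's rule of 1.5-fold with an unadjusted p up to 0.05. Its log2 neurite to soma ratio was 0.21 and 0.19 without KCl and -0.68 and -0.60 with it, a fitted change of -0.74 (SE 0.28, unadjusted p = 0.0258 and adjusted p = 0.999 in edgeR). This is 1 of 8 members called lower, where 1.35% of all 23200 genes were. The ratios of the inserts did not overlap, but the counts behind Pvalb are small (174 to 374 per WT library). The call was lost when any single one of 6 of the 8 WT libraries (all but the soma Ctrl pair) was left out. The fitted change then lay between -0.75 and -0.71. With a term per insert, here and in the genotype fit of this ratio, leaving out 1 library also takes its partner out of the contrast. The libraries of 1 insert are therefore not separate checks, and each Ctrl insert lost the call through its neurite library. Gad2 went from 0.11 and 0.00 to -0.46 and -0.37 and did not pass (log2 -0.36, SE 0.17, unadjusted p = 0.067 in edgeR).

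Loss of Mettl3, the catalytic subunit of the m6A methyltransferase, was read in the Ctrl groups. Mettl3 itself measured 16.7 CPM and 16.2 CPM in WT soma and 8.94 CPM and 10.98 CPM in KO soma, without overlap, but the difference did not pass the test (log2 -0.73, adjusted p = 0.624). In neurites it measured 12.01 CPM and 12.45 CPM in WT and 3.91 CPM and 6.76 CPM in KO (log2 -1.19, adjusted p = 0.423). The counts are sums over all exons of the gene, so the floxed part was not seen on its own, and glia in the culture are outside the hSyn promoter's range. By other measures, the paper reports that METTL3 protein was almost absent, that the floxed exon was lost and that m6A was lower in KO neurons.

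No interneuron gene was called between genotypes in either compartment, and the duplicates of the KO soma were far apart for 4 of them, so differences of several fold could be missed. Sst measured 77.3 CPM and 84.1 CPM in WT soma, and 52.4 CPM and 3.99 CPM in KO soma. Npy measured 21.2 CPM and 22.2 CPM in WT and 15.0 CPM and 2.02 CPM in KO, and Cck 61.3 CPM and 67.6 CPM in WT and 34.0 CPM and 11.1 CPM in KO. The KO values were below both WT values in each of the 3 genes, but KO replicate 2 was 13.1-fold below replicate 1 for Sst, 7.41-fold for Npy and 3.06-fold for Cck, and 8.76-fold for Pvalb (9.24 CPM and 1.06 CPM).

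The trio of GABA genes was not low in the same library. Gad1 measured 312 CPM and 399 CPM in KO soma against 307 CPM and 333 CPM in WT, and Gad2 106 CPM and 114 CPM against 117 CPM and 122 CPM. Slc32a1 measured 125 CPM and 71.9 CPM in KO soma, and Vip 1.52 CPM and 3.18 CPM. Replicate 2 was thus the higher for Gad1, Gad2 and Vip and the lower for Slc32a1.

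The 4 genes that were low in KO soma Ctrl replicate 2 are the 4 members with the shortest exon length, at 566 (Npy), 721 (Sst), 1041 (Pvalb) and 1305 bases (Cck), whereas the others have 2797 (Slc32a1), 3402 (Vip), 5876 (Gad2) and 7639 bases (Gad1). Over all genes that averaged 100 counts or more per library, the median log2 ratio of replicate 2 to replicate 1 in KO soma Ctrl was -1.86 for the 1719 genes under 1000 bases, -0.13 for the 1643 genes from 1000 to 2000 bases, 0.28 from 2000 to 4000 bases and -0.04 above. In the 7 other groups the medians of all 4 length classes lay between -0.26 and 0.20. The neurite library of the same insert was not low, at 22.0 CPM for Sst, 12.9 CPM for Npy, 5.01 CPM for Pvalb and 67.7 CPM for Cck. The part of exon length in these 4 values was not tested further.

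**Figure D4:**
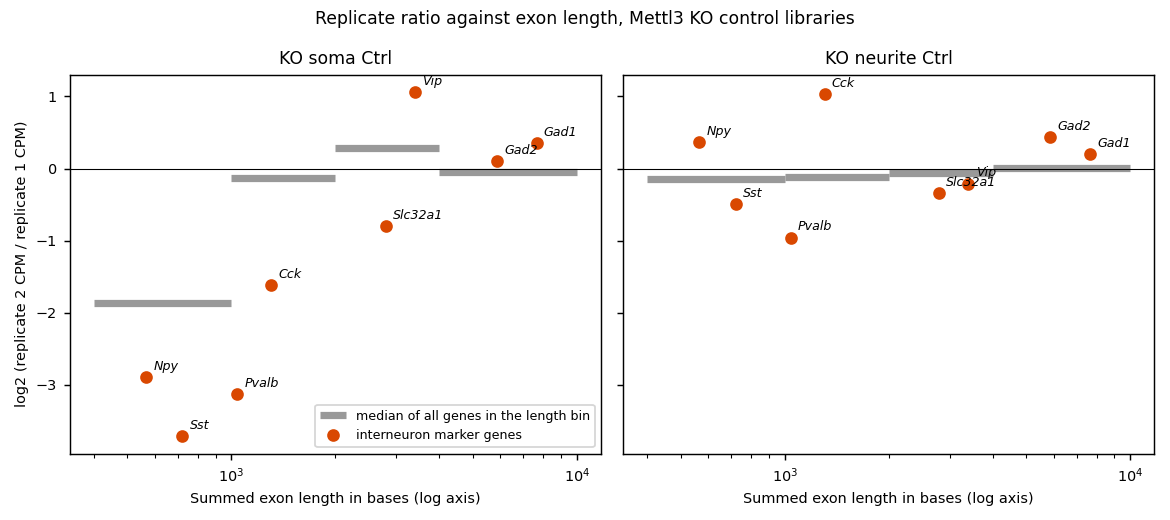
Log2 ratio of replicate 2 to replicate 1 CPM (y axis) against summed exon length on a log axis, for KO soma Ctrl and KO neurite Ctrl, with grey bars for the median of all genes in a length class and orange points for the 8 genes. In soma, Sst and Npy lie at -3.71 and -2.89 and their class, under 1000 bases, at -1.86. Pvalb and Cck lie at -3.13 and -1.62 and their class, from 1000 to 2000 bases, at -0.13. In neurites these classes lie at -0.14 and -0.11.

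In soma the fit to 16 libraries gave log2 differences, KO minus WT, of -1.52 for Sst (SE 0.85, adjusted p = 0.647), -1.36 for Npy (SE 0.80, adjusted p = 0.667) and -1.52 for Cck (SE 0.95, adjusted p = 0.694). None of the 8 members was called, where 0.185% of all 23750 genes were, and none had an unadjusted p of at most 0.05; DESeq2 called none either. Without a filter on low counts, Sst (adjusted p = 0.00588) and Cck (adjusted p = 0.00884) were called. Without KO soma Ctrl replicate 1, only the library with low short genes is left and Sst (log2 -4.34, adjusted p = 0.00488) and Npy (log2 -3.43, adjusted p = 0.03) were called. In neurites none of the 8 was called by edgeR or DESeq2, where 0.188% of all 21814 genes were called by edgeR, and none had an unadjusted p of at most 0.05. There Gad2 measured 127 CPM and 122 CPM in WT and 59.6 CPM and 80.6 CPM in KO (log2 -0.82, SE 0.77, adjusted p = 0.939), and Vip 2.20 CPM and 1.02 CPM in WT and 0.805 CPM and 0.696 CPM in KO (log2 -1.11, SE 1.008, adjusted p = 0.939). In both the KO neurites lay below the WT neurites, with standard errors nearly as large as the differences. The spread in this fit is shared over all 16 libraries, including the KO KCl duplicates that lay far apart. In a fit to the compared libraries alone, edgeR gave an adjusted p of 0.124 for Gad2 (log2 -0.81) and 0.334 for Vip (log2 -1.09). Without both libraries of the first KO KCl insert their log2 differences were -0.80 and -1.08.

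Within KO neurons without KCl, none of the 8 genes was called between neurites and soma, and edgeR called 0% of all 22557 genes. At 1.5-fold with an unadjusted p up to 0.05, edgeR had 1239 genes but no member, and DESeq2 called 17 genes and no member. The log2 differences ran from -1.71 for Vip (SE 1.25) to 1.14 for Cck (SE 1.17). The common biological coefficient of variation, the spread between duplicates beyond counting, was 0.493 in this KO fit and 0.1497 in the WT fit, and the standard errors of the 8 genes ran from 0.82 to 1.25 here and from 0.10 to 0.32 in WT.

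The difference between genotypes in the neurite to soma ratio was called for Gad2 alone by edgeR. Its log2 ratio was 0.11 and 0.00 in WT inserts and -0.83 and -0.50 in KO inserts, a fitted difference of -0.72 (SE 0.30, unadjusted p = 0.0385 and adjusted p = 0.934 in edgeR). This is 1 of 8 called lower, where 1.28% of all 22942 genes were. The call rests on the term per insert, since without it the unadjusted p was 0.522 and no member was called. It was also lost in DESeq2 (unadjusted p = 0.0548) and when any single one of the 4 WT Ctrl libraries or of the 2 libraries of KO Ctrl insert 1 was left out, with unadjusted p-values from 0.0906 to 0.176. Sst (log2 1.61, SE 0.94), Npy (log2 1.48, SE 0.89) and Cck (log2 1.48, SE 0.73) pointed the other way without passing, which rests on KO Ctrl insert 2: without its soma library the value of Npy was -0.11, and without either library of KO Ctrl insert 1 Sst, Npy and Cck were among 4 members called. DESeq2 called Sst (unadjusted p = 0.0395) and Cck (unadjusted p = 0.0283) in place of Gad2. Dlx6, a transcription factor gene of forebrain interneurons, was 1 of 2 genes called lower in this comparison among the 16 of that list (log2 -0.94). Of 10 other secreted peptide genes tested, 1 was called higher. On this rule, with an unadjusted p, 962 of all 22942 genes were called in either direction. The median log2 difference of the 16 was -0.53, and that of all genes was -0.03.

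The KO KCl duplicates differed widely, and the first KCl insert held far more glial RNA than any other. The part of this insert in the KCl comparisons, and in the spread shared by the genotype fits, was not tested beyond leaving it out. Oligodendrocyte lineage markers summed to 3673 CPM in its soma and 7339 CPM in its neurites, against 58.8 to 109 CPM in all other soma and 78.7 to 192 CPM in all other neurite libraries. Microglia markers summed to 405 CPM and 296 CPM in its soma and neurites, against 11.9 to 24.6 CPM and 20.5 to 57.7 CPM elsewhere, and astrocyte markers to 9916 CPM and 19360 CPM, against 1159 to 2578 CPM and 2050 to 6745 CPM. Fos rose in both inserts, to 1357 CPM and 4283 CPM in soma from 37.9 CPM and 58.2 CPM without KCl.

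Apart from Pvalb, the interneuron genes were low in that insert. Gad1 measured 134 CPM in the first and 606 CPM in the second KO KCl soma library, Gad2 29.7 CPM and 157 CPM, Slc32a1 17.0 CPM and 108 CPM, and Cck 9.80 CPM and 70.5 CPM. The peptide genes Sst (24.4 CPM and 35.3 CPM), Npy (7.15 CPM and 17.9 CPM) and Vip (0.273 CPM and 2.38 CPM) were lower there as well. Pvalb measured 11.4 CPM in the first and 8.15 CPM in the second, and in neurites 13.9 CPM and 4.45 CPM, so its highest value of all 16 libraries came from the insert rich in glial mRNA. Of the 16 interneuron transcription factor genes 15 and of the 9 excitatory markers 8 were also lower in the first KO KCl soma library than in the second.

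**Figure D5:**
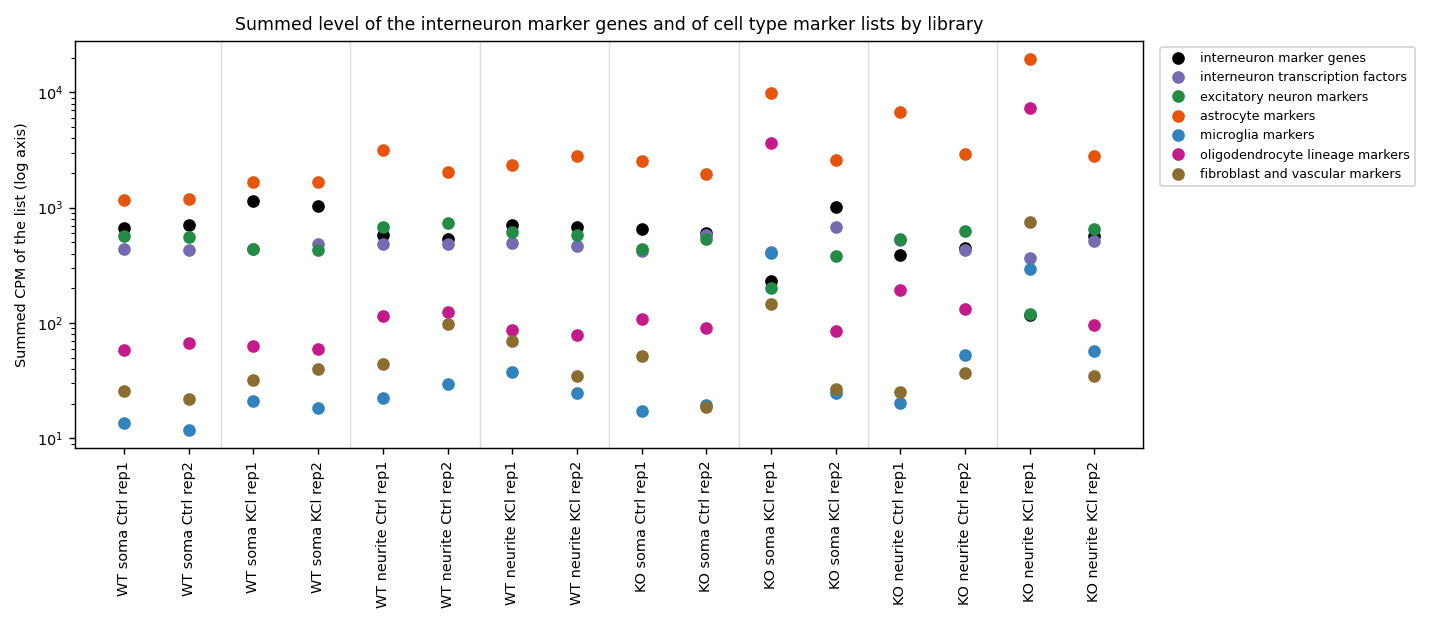
Summed CPM on a log axis (y axis) of the 8 interneuron genes (black) and of 6 marker lists in each of the 16 libraries (x axis). In the first KO KCl insert the interneuron genes fall to 234 CPM in soma and 118 CPM in neurites while the oligodendrocyte lineage markers stand at 3673 CPM and 7339 CPM.

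The methods take control and KCl neurons from a shared litter, but no label says that the replicate number marks the litter. Against the control library with the same number, 7 of 8 members were higher with KCl in KO soma replicate 2 and 1 of 8 in replicate 1. In each replicate of WT soma this was 7 of 8. Over 15170 genes the shares higher with KCl were 55.1% and 50.6% in KO soma replicates 2 and 1, and 59.8% and 54.4% in WT soma replicates 1 and 2. In replicate 2 Gad1 was 1.52-fold and Gad2 1.38-fold its control, near the 1.61-fold and 1.57-fold of WT soma replicate 2. Its ratios were 8.83 for Sst, 8.85 for Npy, 7.72 for Pvalb and 6.35 for Cck. Their denominator is the KO soma Ctrl library in which these members, and genes under 1000 bases as a class, were low. The duplicates of each of the 8 genes thus overlapped between KCl and Ctrl in KO soma.

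No member was called for KCl in KO soma, and edgeR called 0% of all 23679 genes there, with 1514 genes and no member at 2-fold with an unadjusted p up to 0.05, and 270 genes and no member in DESeq2. The difference in the KCl response of soma between genotypes was called for none of the 8, and edgeR called 0% of all 24058 genes, with 426 genes and no member at an unadjusted p of at most 0.05 and 2 genes and no member in DESeq2. The largest differences by size among the 8 were -1.61 for Vip (SE 1.38) and -1.004 for Sst (SE 1.19) on the log2 scale, with errors nearly as large or larger. Without both libraries of the first KO KCl insert, again no member was called in either comparison.

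The profile of the GABA trio was compared with all other genes over the 16 libraries. The 5 genes most like it, by the root mean square difference of centred log2(CPM + 1) values among 15170 genes that averaged 100 counts or more per library, were Zmat4 (0.175), Ache (0.221), which encodes acetylcholinesterase, Tmem179 (0.225), Vstm2a (0.225) and Kcnmb2 (0.233), which encodes a subunit of calcium-activated potassium channels. Gad1, Gad2 and Slc32a1 themselves stood at 0.259, 0.274 and 0.326 from their own mean, at ranks 8, 13 and 37, and the median of all genes was 0.989. Vip (0.611), Cck (0.709) and Npy (0.818) were nearer than the median gene and Sst (1.12) and Pvalb (1.34) were farther. The 16 libraries share inserts and the low values of the first KO KCl insert, and Ache, for example, ran from 9.17 CPM to 100 CPM.

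DART-seq, which reads m6A as C-to-U editing next to the modified adenosine by a YTH domain fused to a cytidine deaminase, listed 21 called sites in 7 of the 8 mRNAs and none in Vip. Gad2 had 6 sites, Gad1 5, Slc32a1 3, Sst, Pvalb and Cck 2 each and Npy 1, where the median of the 5643 mRNAs listed was 2. Sites had to be more edited in WT than in KO and lie in a RAC motif (R is A or G) to be called, so neither property is a finding. By GENCODE M21, 14 sites were in coding sequence, 5 in 3′ UTRs and 2 in 5′ UTRs. The site with the highest value in each mRNA is shown 5′ to 3′ on the strand of the mRNA, with the RAC in capitals whose last base is the edited C, to give the strongest called site of each member.
Gad1, chr2:70591144-70591164, coding sequence, exon 12 of 17: ccgccacaAACtcagcggcat
Gad2, chr2:22692331-22692351, 3′ UTR, exon 16 of 16: acaggcatAACtttcctttct
Slc32a1, chr2:158611384-158611404, coding sequence, exon 1 of 2: acgatctcGACtttgagcatc
Sst, chr16:23890819-23890839, 5′ UTR, exon 1 of 2: ctgaaggaGACgctaccgaag
Npy, chr6:49829343-49829363, 3′ UTR, exon 4 of 4: gttctcccGACttttccaagt
Pvalb, chr15:78191519-78191539, 3′ UTR, exon 4 of 4: cctcggatGACgccattcttc
Cck, chr9:121490145-121490165, coding sequence, exon 3 of 3: agagcctgGACcccagccata
The listed average C-to-U value was 10.7% at the Sst site, 9.11% at the Gad2 site, 7.87% at the Npy site, 6.56% at the Pvalb site, 3.46% at the Gad1 site, 2.91% at the Slc32a1 site and 0.920% at the Cck site. The depth behind these values is unknown here, and they are the authors' pooled values with no replicate error.

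The authors' score of an mRNA sums the editing over its called sites. The 16 DART-seq libraries covered both genotypes and compartments, without and with KCl. The supplement says that the soma and neurite averages take in Ctrl and KCl samples alike, so these scores are not values of untreated cultures. The WT score was 24.6% for Gad2, 10.7% for Gad1, 9.96% for Sst, 8.61% for Pvalb, 7.87% for Npy, 5.34% for Slc32a1 and 1.48% for Cck, against a median of 10.3% over the 5643 mRNAs. Gad2 stood above 83.4% of all listed mRNAs and Cck above 3.74%. The site values given above are not parts of these WT scores, since the Sst site alone was listed at 10.7%, above the Sst score. Which libraries enter the site values is not stated in the labels. The score of neurites was above that of soma for Gad1 (14.3% and 8.06%), Gad2 (27.1% and 22.2%), Sst (16.0% and 5.57%) and Cck (2.73% and 0.931%), and below it for Npy (5.35% and 9.80%), Pvalb (7.38% and 9.72%) and Slc32a1 (5.18% and 5.46%). This is 4 of 7 members higher in neurites, where 68.8% of all listed mRNAs were, and no test was made because the scores are pooled.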

How the data were processed

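RNA-seq counts are the deposited counts of fragments per gene, which the authors made with STAR 2.7.7a on mm10 and featureCounts 2.0.1 with Ensembl gene models, without strand and counting multi-mapped reads at each place. In the deposited DART-seq tables the editing score of an mRNA is the authors' sum of C-to-U rates and the site value is a fraction averaged by the authors; the site value equalled the WT score within 1e-6 in 1251 of 1825 mRNAs with a single site. The deposited exon lengths are in bases. The authors' tables of their own comparisons (fold changes and p-values) were not used.

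Counts were fitted in edgeR 4.0.16 (R 4.3.3; TMM, quasi-likelihood F-test, two-sided) for genes averaging 10 counts or more in the libraries being compared. WT and KO comparisons were fitted in the 8 libraries of that genotype, and genotype comparisons in all 16, since the spread differed between genotypes; this choice, the 8 genes and the other lists were made with earlier results of these data known. Thresholds followed the study: 1.5-fold (compartments and genotypes) or 2-fold (KCl) with an adjusted p of at most 0.05, and 1.5-fold with an unadjusted p of at most 0.05 for changes in the neurite to soma ratio, fitted with 1 term per insert. CPM values use TMM factors over 16 libraries, so ratios of printed CPM can differ from fitted folds. Alternatives were DESeq2 1.42.0, other scalings, filters and sample sets, and leaving out libraries. The models were tested on simulated data. Besides the 8 genes, named genes were Mettl3, Fos, Npas4 and Arc as checks, up to 4 called genes with the smallest p per list and comparison, the highest markers of other cell types, and the 5 genes most like the GABA trio. Some genes that these rules would name are not reported here. Symbols were matched for 55394 of 55573 genes. Mitochondrially encoded genes (37) were left out. Promoter and site sequences are from RefSeq GRCm38.p6.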

Additional observations from a re-analysis of the deposited data

Results flagged for a closer look

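Pvalb differed between KCl and Ctrl in its neurite to soma ratio in WT inserts, by -0.74 on the log2 scale (unadjusted p = 0.0258 and adjusted p = 0.999 in edgeR, with a term per insert). Both KCl inserts lay below both Ctrl inserts. It did not pass with an adjusted p or when any single one of 6 libraries was left out (unadjusted p from 0.0515 to 0.101).

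Gad2 differed between Mettl3 KO and WT in its neurite to soma ratio without KCl, by -0.72 on the log2 scale (unadjusted p = 0.0385 and adjusted p = 0.934 in edgeR, with a term per insert). Both KO inserts lay below both WT inserts. It did not pass without the term per insert (unadjusted p = 0.522), in DESeq2 (unadjusted p = 0.0548) or when any single one of 6 libraries was left out (unadjusted p from 0.0906 to 0.176).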

How the results depend on the processing

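Of 554 alternative values of 47 gene changes, 476 kept their direction and side of the threshold, 39 lost the call, 21 gained one and 18 changed sign, 13 of these when 1 library was left out. A fit of the WT comparisons to all 16 libraries called 0 members for neurites against soma without KCl, 0 with KCl, 0 for KCl in soma and 0 for the change of ratio with KCl; by its construction the spread of KO duplicates enters it. It turned Gad2 between neurites and soma without KCl to 0.062 and Cck with KCl in soma to 0.030 on the log2 scale. That Gad2 value was also above 0 with DESeq2 (0.0018), with RLE scaling (0.0018) and in the compared libraries alone (0.044); the cause was not tested. With an adjusted p, 0 members were called for either change of the neurite to soma ratio. For the genotype difference in soma, 2 members (Sst and Cck) were called without a filter on low counts. For the genotype difference in ratio, 2 members were called by DESeq2, 3 (Sst, Npy and Cck) without a filter, and 0 without the replicate block of 1 term per insert; the cause was not tested.

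Leaving out 1 library gave 0 to 1 members for neurites against soma without KCl, 2 to 5 with KCl, 0 to 2 for KCl in WT soma, 0 to 2 for the change of ratio with KCl, 0 to 2 for the genotype in soma and 0 to 4 for the genotype difference in ratio. Log2 values that changed sign ranged from -0.067 to 0.066 for Gad2 (neurites against soma without KCl), from -0.45 to 0.24 for Slc32a1 and -0.29 to 0.18 for Cck (KCl in soma), from -0.25 to 0.089 for Slc32a1 and -0.27 to 0.84 for Vip (KCl in neurites), from -0.11 to 3.15 for Npy (genotype difference in ratio) and from -1.86 to 1.81 for Sst (genotype difference in the KCl response).

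Over all genes, calls moved by more than 1.5 times as follows. Leaving out 1 library gave 1068 to 3694 calls (3145 in full) and 752 to 2395 (2211) for the WT compartments without and with KCl, 812 to 1522 (1611) and 576 to 1186 (1109) for KCl in WT soma and neurites, 518 to 1666 (779) for the change of ratio, 4 to 2705 (44) and 4 to 14 (41) for the genotype in soma and neurites, 246 to 4946 (962) for the genotype difference in ratio, 0 to 1119 (0) for the KO compartments and 0 to 1442 (0) for the genotype difference in the KCl response. With all 16 libraries they went from 3145 and 2211 to 0 and 0 for the compartments without and with KCl in WT, from 1611 to 341 and from 1109 to 263 for KCl in soma and neurites, from 779 to 291 for the change of ratio and from 0 to 277 for KCl in KO soma. With DESeq2 they went from 44 to 413 (genotype in soma), 41 to 313 (in neurites), 962 to 1584 (genotype difference in ratio), 779 to 498 (change of ratio), 0 to 270 (KCl in KO soma), 0 to 17 (KO compartments) and 0 to 2 (genotype difference in the KCl response). Without a filter these were 505, 353, 2676, 1457, 780, 176 and 229, and 1761 for KCl in WT neurites. With a minimum of 100 counts they were 1040 and 643 for KCl in WT soma and neurites, 425 for the change of ratio and 569 for the genotype difference in it. In the compared libraries alone they were 0, 136 and 347 for the genotype in soma, in neurites and in ratio. Without both libraries of the first KO KCl insert, chosen after seeing the data, they were 419 and 270 for the genotype and 19 for KCl in KO soma.

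Same-numbered duplicates did not deviate together in WT (r between -0.187 and 0.0714 over genes, 0.0674 to 0.902 in KO), so the numbers were not used as a block except in the 2 fits of ratios. There the soma and neurites with 1 number were treated as 1 insert, as the fractions come from the same inserts, although no label says that the number marks the insert. A replicate block left 0 members for KCl in WT soma (Sst at a log2 change of 0.95, adjusted p = 0.0163) and 4 genes for KCl in KO soma; without the block the genotype difference in ratio called 296 genes. With the WT neurite Ctrl numbers crossed, also chosen after seeing the data, the block called 2 members and 3266 genes between compartments without KCl.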
